A study of Mus musculus with 6 samples.

Results

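Transcripts of 8 genes were followed in the nucleus accumbens of mice given repeated cocaine: the kainate receptor subunits Grik1, Grik2, Grik3, Grik4 and Grik5, the delta receptor subunit Grid1, and the auxiliary proteins Neto1 and Neto2. They were taken by gene symbol from the authors' deposited table of 21540 gene records. Each symbol had 1 record, and all 8 were among the 14959 records marked as tested. The nucleus accumbens is a ventral striatal region of the reward circuit. C57BL/6 mice had received 7 daily intraperitoneal injections, and 4 h of withdrawal is given for the tissue. The cocaine group (20 mg/kg) had 3 libraries and the saline group had 3 libraries, all measured by RNA sequencing. Saline libraries carry the same protocol wording as cocaine libraries, so the grouping rests on the treatment label. The labels do not say whether a library held 1 animal or pooled tissue, so the spread between libraries may be technical.

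Kainate receptors are tetrameric cation channels opened by glutamate. GluK1, GluK2 and GluK3, encoded by Grik1, Grik2 and Grik3, form channels on their own and bind kainate with low affinity, while GluK4 and GluK5, encoded by Grik4 and Grik5, bind it with high affinity and need a partner of the first kind. Neto1 and Neto2 are single-pass membrane proteins that join kainate receptors and slow their gating. GluD1, encoded by Grid1, belongs to the same superfamily but is not known to open to glutamate, and it links to presynaptic neurexins through secreted cerebellins.

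The 6 subunit genes share a pore loop, shown here because the mRNAs of GluK1 and GluK2 can be edited within it. Each line is 45 bases of coding sequence, 5′ to 3′, from GENCODE mouse release 21 on build GRCm38. Capitals mark the glutamine codon at the position known as the Q/R site, which adenosine deaminases recode to arginine in part of the Grik1 and Grik2 mRNAs.
Grik1: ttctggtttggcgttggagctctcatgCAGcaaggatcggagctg
Grik2: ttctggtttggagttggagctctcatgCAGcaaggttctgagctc
Grik3: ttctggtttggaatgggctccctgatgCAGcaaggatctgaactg
Grik4: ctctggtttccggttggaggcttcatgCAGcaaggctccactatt
Grik5: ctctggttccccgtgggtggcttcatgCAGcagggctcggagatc
Grid1: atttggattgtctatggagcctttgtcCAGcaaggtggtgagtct

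All 6 genes carry the codon CAG there. Grik1 and Grik2 matched at 41 of the 45 bases (91.1%), Grik4 and Grik5 at 35 (77.8%), and Grid1 matched Grik5 at 23 (51.1%). In Grik1 (chr16:87936105-87940571, minus strand) the stretch runs from exon 12 into exon 13, and in Grik2 (chr10:49240786-49244358, minus strand) from exon 13 into exon 14. In Grik3 (chr4:125691180-125693972, plus strand) it also joins exon 12 and exon 13, and in Grid1 (chr14:35450363-35452271, plus strand) exon 11 and exon 12. It lies within exon 16 of Grik4 (chr9:42547608-42547652, minus strand) and within exon 15 of Grik5 (chr7:25022482-25022526, minus strand). Group values cannot show which share of the mRNA was edited. The record of Adarb1, an adenosine deaminase that edits this site, is marked as failed in the authors' deposited table and was not tested (30.7 FPKM in the cocaine group and 28.1 FPKM in the saline group).

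Grik5 was the most abundant of the 8 transcripts and the only 1 to pass the authors' test, and it fell by 4.47% after cocaine as deposited (log2 fold change -0.07, and 0.0020 after a trend with GC content and length was removed). The other 7 did not pass. The 4 members above 0 were Grik1, Grik2, Neto1 and Neto2, and the 4 below 0 were Grik3, Grik4, Grik5 and Grid1. The count of 1 called member in 8 stands beside 184 called in 14959 tested records, or 1.23%, and falls made up 0.709% of tested records. At an unadjusted p under 0.05 there were 2 members, Grik5 and Grik3, or 25.0%, against 5.76% of tested records. The median log2 fold change (cocaine over saline) of the 8 members was 0.0087, against -0.02 over the 12825 tested genes of at least 1 FPKM, of which 40.7% lay above 0.

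The authors' deposited table gives 1 FPKM value (fragments per kilobase of transcript, scaled to the fragments mapped) per group and no value per library, so no SD and no overlap between groups can be given. All FPKM values, log2 fold changes, p-values and q-values given here come from the authors' deposited table unless a calculation is named. The read depth is unknown. As an error, the deposited p-value was turned back into the standard error that a two-sided normal test would need to give it, called the implied standard error here. Whether the authors' test had that form is not given in the sources used here. Markers of medium spiny neurons, which make up most of this region's neurons, were abundant, with Penk at 1498 FPKM in the cocaine group and 1531 FPKM in the saline group. Of 10 such markers, 0 passed the deposited q of 0.05, 9 lay below 0, and 3 of these had an unadjusted p under 0.05. In bulk tissue, fewer cells of a type and less RNA per cell cannot be told apart.

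Levels of the 8 genes spanned 44.3-fold in the cocaine group and 51.9-fold in the saline group, in the same order in both. From the top the order was Grik5, Neto1, Grik2, Grid1, Neto2, Grik3, Grik4 and Grik1. The highest stood at 75.2 FPKM in the cocaine group and 78.7 FPKM in the saline group, above 93.2% of tested records by mean level. The lowest, Grik1, stood at 1.70 FPKM in the cocaine group and 1.52 FPKM in the saline group. Between Neto1 and Neto2 neighbours in the order lay within 1.26-fold in the cocaine group and 1.32-fold in the saline group. Whether those neighbours differ beyond the spread of libraries cannot be tested with 1 value per group.

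**Figure D1:**
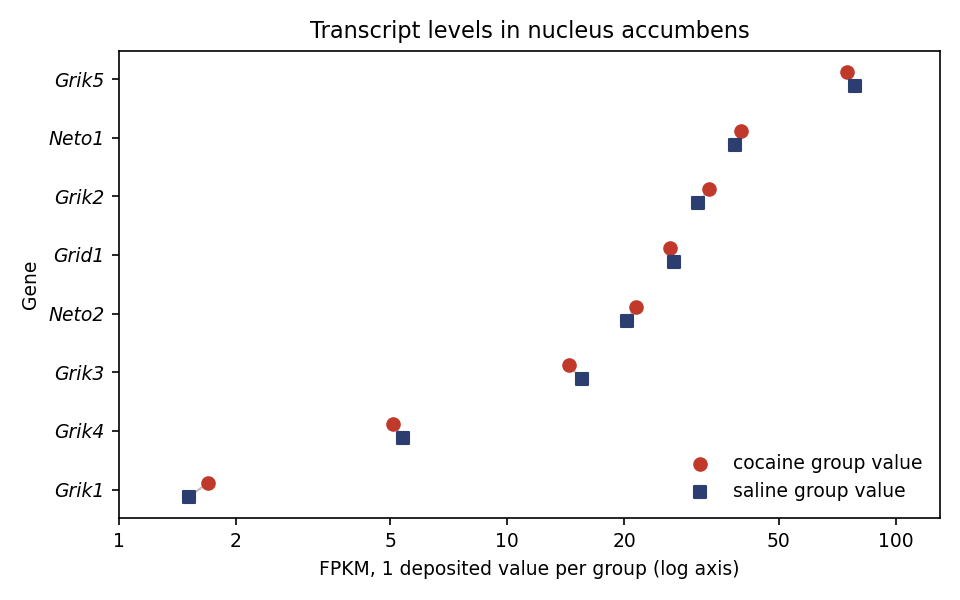
Group values of the 8 genes in FPKM on a log axis, cocaine as circles and saline as squares, 1 deposited value per group with no error bar. The order of the genes is the same in both groups, with Grik5 highest (75.2 and 78.7 FPKM) and Grik1 lowest (1.70 and 1.52 FPKM), and each pair of points lies close together.

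The low-affinity subunits were led by Grik2, which encodes GluK2, the usual partner of GluK5. Grik2 had 33.1 FPKM in the cocaine group and 31.0 FPKM in the saline group, a log2 fold change of 0.10 with an implied standard error of 0.06 (p = 0.0850 in the authors' deposited table). Its implied 95% interval ran from -0.01 to 0.21. Grik3 encodes GluK3, which needs higher glutamate concentrations to open than GluK2 does. It had 14.4 FPKM in the cocaine group and 15.6 FPKM in the saline group. Its log2 fold change of -0.12 was the lowest of the 8 members, with an implied standard error of 0.04. That difference did not pass after the authors' adjustment (p = 0.00438 and q = 0.262 in the authors' deposited table). Its implied 95% interval, not adjusted for the number of genes, nevertheless ran from -0.20 to -0.04. Grik1 encodes GluK1, a subunit best known from sensory neurons and inhibitory interneurons. Its log2 fold change of 0.16 was the highest of the 8, but its implied standard error of 0.31 was the largest too (p = 0.60 in the authors' deposited table), and the interval from -0.45 to 0.77 covers changes of either sign.

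Among the high-affinity subunits, Grik5 fell in the authors' deposited table, at 75.2 FPKM in the cocaine group and 78.7 FPKM in the saline group (log2 fold change -0.07, p = 0.000431, q = 0.0447), but stood at 0.0020 once the trend with GC content and length described below was removed. The implied 95% interval of the deposited change was -6.87% to -2.01%. The q-value lay close to the limit: ordered by p, Grik5 ranked 180 of the 184 called records. Only 13 called records had a smaller absolute log2 fold change, and the median over called records was 0.14. Grik4, which encodes GluK4, had 5.09 FPKM in the cocaine group and 5.39 FPKM in the saline group (log2 fold change -0.08, implied standard error 0.08, p = 0.314 in the authors' deposited table).

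**Figure D2:**
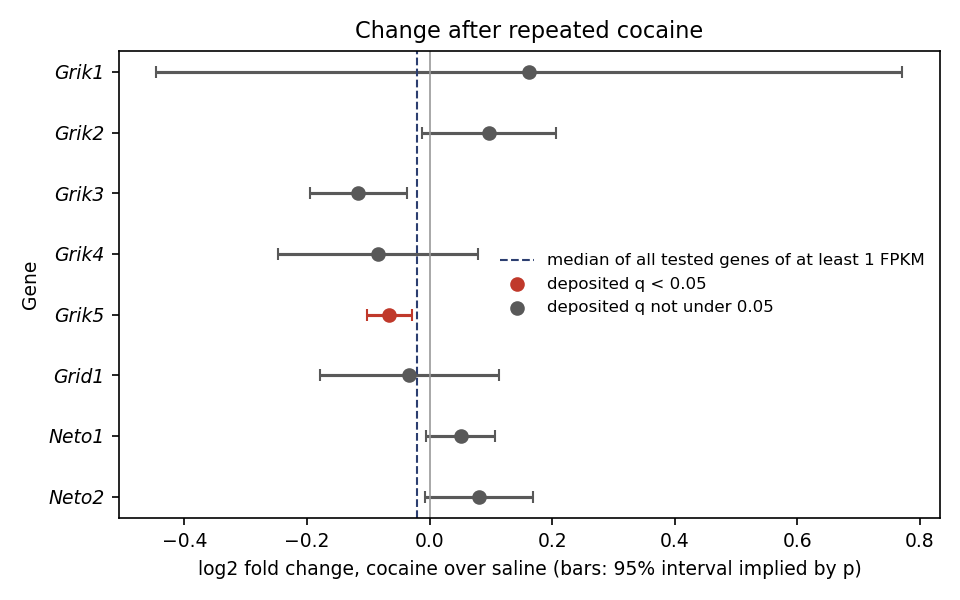
Deposited log2 fold change, cocaine over saline, of each gene (points), with bars for the 95% interval implied by the deposited p-value, not adjusted for the number of genes. The solid line marks 0 and the dashed line the median of all tested genes of at least 1 FPKM (-0.02). Grik5, in red, has the narrowest bar and is the 1 called gene, at -0.07 as deposited and at 0.0020 with the GC and length trend removed, while Grik1 has the widest bar.

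Summed over the 5 kainate subunits, the level was 129.5 FPKM in the cocaine group and 132.2 FPKM in the saline group. Grik5 made up 58.1% of that sum in the cocaine group and 59.5% in the saline group. Grik2 made up 25.6% in the cocaine group and 23.4% in the saline group. The shares of Grik3 (11.1% and 11.8%), Grik4 (3.93% and 4.08%) and Grik1 (1.31% and 1.15%) are given in the same order, cocaine before saline. Transcripts of the high-affinity subunits outnumbered those of the low-affinity ones per length, by 1.63 to 1 in the cocaine group and 1.75 to 1 in the saline group. Grik5 stood 2.27-fold above Grik2 in the cocaine group and 2.54-fold above it in the saline group. These shares have no replicate error and were not tested.

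**Figure D3:**
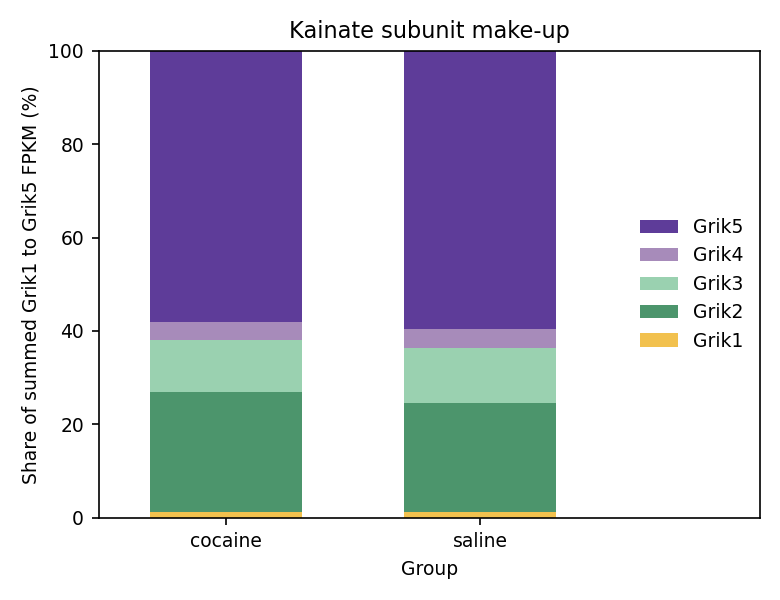
Share of the summed FPKM of Grik1 to Grik5 held by each subunit, in percent, for the cocaine group (left) and the saline group (right). The largest block is Grik5 (58.1% and 59.5%), followed by Grik2 (25.6% and 23.4%). The values are group values with no error.

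Both auxiliary genes stood slightly higher in the cocaine group as deposited, and neither passed the test. Neto1, which is also known to bind NMDA receptors, had 39.9 FPKM in the cocaine group and 38.6 FPKM in the saline group. Its log2 fold change was 0.05 (implied standard error 0.03, p = 0.0806 in the authors' deposited table), and it turned to -0.01 after removal of the trend with GC content and length. An antisense gene in the later annotation overlaps exons of Neto1. It holds 2.04% of the distinct 50-base words of the Neto1 transcripts, and the strand setting of the counting is not given, so its reads could have been added. Other members have overlaps too. Genes annotated as miscellaneous RNA overlap exons of Grik4 and Grid1 on the same strand, and a microRNA gene overlaps Neto2 on the opposite strand. Of the distinct 50-base words of Grid1, 1.27% occur in genes outside the 8. Neto2, which is also known to bind the chloride transporter KCC2, had 21.5 FPKM in the cocaine group and 20.3 FPKM in the saline group (log2 fold change 0.08, implied standard error 0.05, p = 0.0749 in the authors' deposited table). Neto1 stood 1.86-fold above Neto2 in the cocaine group and 1.90-fold above it in the saline group. Together they came to 0.474 of the kainate subunit sum in the cocaine group and 0.445 in the saline group.

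Grid1, the delta subunit widely expressed in forebrain, had 26.2 FPKM in the cocaine group and 26.8 FPKM in the saline group. The log2 fold change was -0.03 with an implied standard error of 0.07 (p = 0.658 in the authors' deposited table), and its implied 95% interval reached from -0.18 to 0.11.

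The error behind these fold changes differed more between members than the fold changes did. The implied standard error was 0.02 for Grik5, the smallest of the 8. Only 1.11% of 1895 tested records within 2-fold of its level had a smaller one, and their median was 0.07. Grik3 (4.73%) and Neto1 (4.81%) also lay near the low end for their level, while 36.8% of like records had a smaller error than Grid1 and 63.0% a smaller error than Grik1. Since the implied standard error is computed from p, a called record with a small fold change must have a small one. Grik3 differed by more than Grik5 on the log2 scale and did not pass, while Grik5 did.

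**Figure D4:**
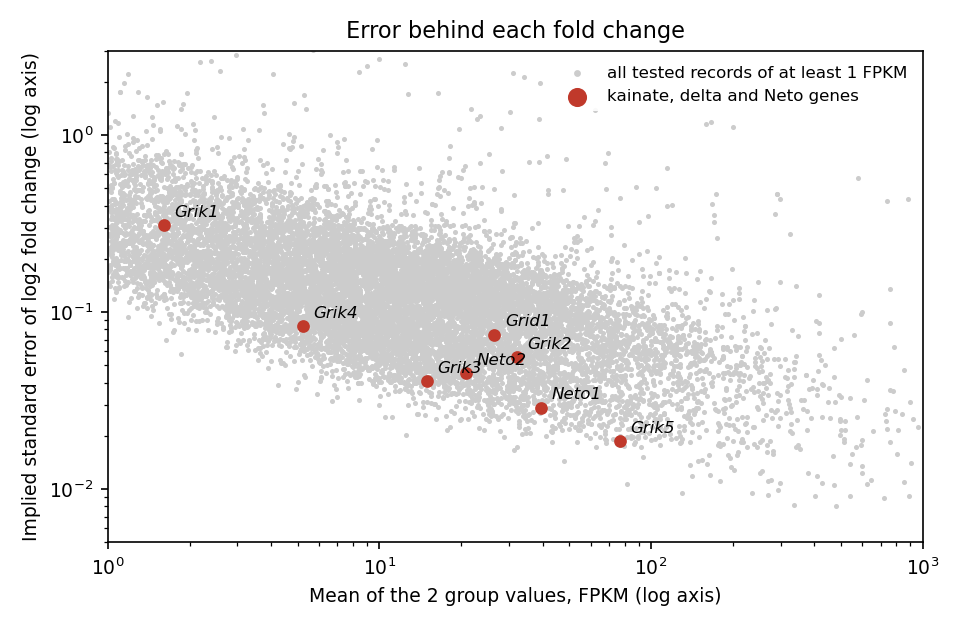
Implied standard error of the log2 fold change against the mean of the 2 group values in FPKM, both on log axes, for tested records of at least 1 FPKM (grey) and the 8 genes (red). The axes leave out 27 of 12847 grey records. Grik5 lies at the lower edge of the cloud at 0.02, and Grik1 lies within it at 0.31.

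The sign of the 8 fold changes divided the members by the GC content of their transcripts. In the longest GENCODE transcript of each gene, the 4 members above 0 had GC contents from 36.5% to 47.9%, and the 4 below 0 had 49.9% to 61.7%. Neto2 (36.5%), Grik2 (37.9%) and Neto1 (39.6%) lay in the decile of genes with the lowest GC content, where the median log2 fold change was 0.04 and 67.6% of 1257 genes were above 0. Grik5 (61.7%) lay in the decile with the highest, where the median was -0.07 and 22.0% of genes were above 0. Grik3 (54.2%) lay in a decile with a median of -0.04, and Grik4 (52.2%) in one with a median of -0.03. Grid1 (49.9%) lay in a decile with a median of -0.02. Grik1 (47.9%) did not share the sign of its decile, where the median was -0.0050 and 47.3% of genes were above 0. Transcript lengths overlapped, at 3655 to 9427 bases for the members above 0 and 4061 to 8973 bases for those below 0.

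With the median of genes of like GC content and length subtracted, Grik5 was at 0.0020, Grik3 at -0.07, Grik2 at 0.03 and Neto2 at 0.04. Under the same subtraction Grik4 was at -0.06, Grid1 at -0.03 and Grik1 at 0.18. The sign changed for Grik5 and Neto1 and was kept by the other 6. The part of GC content in these fold changes was not tested further.

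**Figure D5:**
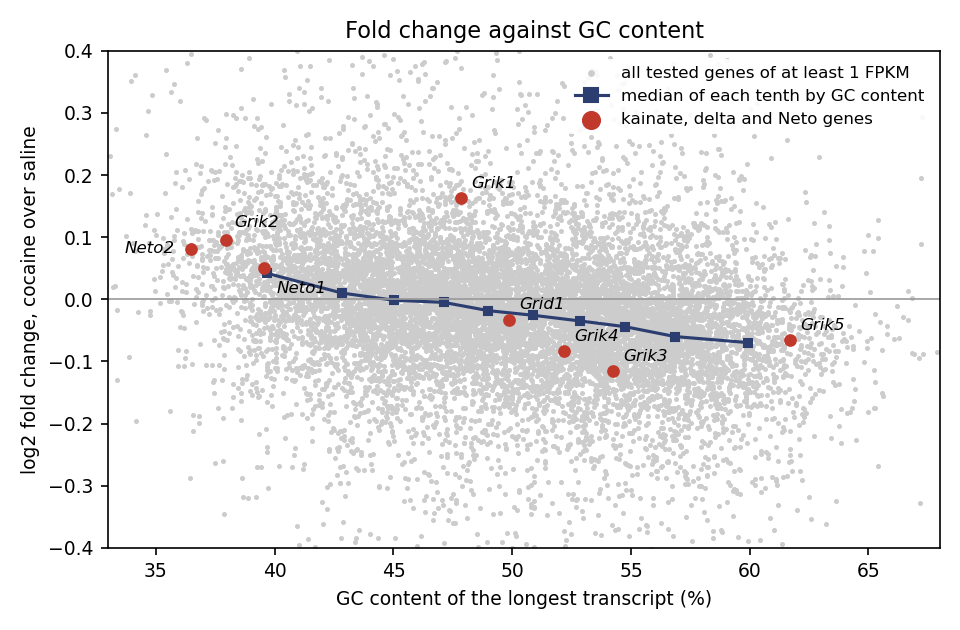
Deposited log2 fold change, cocaine over saline, against the GC content of the longest transcript in percent, for tested genes of at least 1 FPKM (grey), the median of each decile of genes by GC content (blue squares) and the 8 genes (red). The axes leave out 283 of 12566 grey genes. The blue line falls from 0.04 to -0.07, and Grik5 and Neto1 lie close to it.

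Marker levels of other cell types stood as follows beside the values of Grik5 and the other members. Of 7 cortical glutamatergic markers, 5 lay below 0, and their summed level was 65.7 FPKM in the cocaine group and 71.6 FPKM in the saline group, with none listed at 0. Most of that difference lay in Slc17a7, the only 1 of these 7 that fell at the deposited q of 0.05, described below. At an unadjusted p under 0.05, 2 stood lower and 0 higher. The 2 were Slc17a7 and Neurod2 (log2 fold change -0.33, q = 0.503, and -0.25 after trend removal). Rorb, at 0.05, and Cux2, at 0.12, lay above 0 and did not pass. Of 7 endothelial markers all lay below 0, with sums of 36.0 FPKM in the cocaine group and 43.2 FPKM in the saline group. Of these 1 fell, Cldn5, which encodes a tight junction protein of the blood-brain barrier. It had 7.46 FPKM in the cocaine group and 10.2 FPKM in the saline group (log2 fold change -0.45, q = 0.00123, and -0.37 after trend removal), a larger log2 change than that of any of the 8 members. Of 7 astrocyte markers 5 lay above 0, with sums of 776 FPKM in the cocaine group and 698 FPKM in the saline group. Most of that difference lay in Slc1a2, at 453 FPKM in the cocaine group and 377 FPKM in the saline group. Of the astrocyte markers 0 passed the deposited q of 0.05, while 3 stood higher and 1, Gfap, lower at an unadjusted p under 0.05. Among interneuron, oligodendrocyte, oligodendrocyte precursor and microglia markers 0 passed the deposited q of 0.05, with 1 higher and 1 lower interneuron marker and 1 higher oligodendrocyte marker at an unadjusted p under 0.05. Of 4 tested choroid plexus markers 1 rose, Ttr, which encodes a carrier protein of thyroid hormone. Ttr had 10.8 FPKM in the cocaine group and 0.668 FPKM in the saline group (log2 fold change 4.02). Folr1 also lay above 0 but did not pass, at 0.618 FPKM in the cocaine group and 0.234 FPKM in the saline group. Its log2 fold change was 1.40, with an implied standard error of 2.03. Kl, at -0.04, and Clic6, at -0.18, lay below 0 and did not pass. The part of these cells in the members' values was not tested.

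Proteins that bind, anchor or phosphorylate kainate receptors gave 2 rises, 0 falls and 19 genes that did not pass, with a median log2 fold change of 0.0031 over 21 tested genes of 23 listed. Both rises were protein kinases. Prkcb, a protein kinase C, was at 216 FPKM in the cocaine group and 197 FPKM in the saline group (log2 fold change 0.13, q = 1.86e-05). Camk2a, the alpha subunit of the calcium/calmodulin kinase of the postsynaptic density, was at 595 FPKM in the cocaine group and 554 FPKM in the saline group (log2 fold change 0.10, q = 0.00915). With the GC and length trend removed these were 0.17 and 0.13. The scaffold Dlg4, which encodes PSD-95, was at 778 FPKM in the cocaine group and 777 FPKM in the saline group (p = 0.931 in the authors' deposited table). C1ql3, a secreted protein that together with C1ql2 recruits kainate receptors to hippocampal mossy fibre synapses, was singled out after its values were seen. It had 2.32 FPKM in the cocaine group and 3.17 FPKM in the saline group (log2 fold change -0.45, implied standard error 0.13) and missed the threshold (p = 0.000621 and q = 0.0589 in the authors' deposited table).

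Among 14 genes tied to delta receptors, namely cerebellins, neurexins and intracellular partners, the deposited Cuffdiff-style test called 0, while 1 stood higher at an unadjusted p under 0.05, and the median log2 fold change was 0.07. The cerebellins were low. Cbln4, the most abundant, was at 3.22 FPKM in the cocaine group and 3.52 FPKM in the saline group. Nrxn2, a presynaptic neurexin, was at 163 FPKM in the cocaine group and 171 FPKM in the saline group (p = 0.210 in the authors' deposited table).

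Of 10 genes for glutamate supply and clearance, 1 fell, 0 rose and 9 did not pass. The vesicular transporter gene Slc17a7, also a cortical marker, had 44.9 FPKM in the cocaine group and 49.9 FPKM in the saline group (log2 fold change -0.15, q = 3.70e-05, and -0.08 with the trend removed). The astrocyte genes Glul, for glutamine synthetase, and Slc1a2, for the main glutamate transporter, did not pass. Glul had 629 FPKM in the cocaine group and 620 FPKM in the saline group (p = 0.610 in the authors' deposited table). Slc1a2 had 453 FPKM in the cocaine group and 377 FPKM in the saline group (p = 0.0345 and q = 0.968 in the authors' deposited table).

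The other glutamate receptor classes are set beside the kainate subunits as values only. The kainate subunits gave 1 fall in 5 with a median of -0.07. That fall was Grik5, which was at 0.0020 after trend removal. Beside this and the other counts of calls given here, 1.23% of all tested records were called and 0.709% were falls. The AMPA subunits gave 1 rise in 4, Gria2, with a median of 0.05, and the NMDA subunits gave 2 rises in 7, Grin2a and Grin2b, with a median of 0.06. Gria2, which encodes the AMPA subunit that limits calcium entry, had 94.3 FPKM in the cocaine group and 89.0 FPKM in the saline group (q = 0.0216). Its log2 fold change of 0.08 was 0.02 after trend removal, about as small as its implied standard error of 0.02. Grin2a (0.28) and Grin2b (0.22) were at 0.23 and 0.17 after trend removal. The metabotropic receptors gave 0 calls in 7 tested genes (at an unadjusted p under 0.05, 1 stood higher and 1 lower) and a median of 0.0068. Summed levels were 129.5 FPKM for the kainate class in the cocaine group and 132.2 FPKM in the saline group, against 247 FPKM and 236 FPKM for the AMPA class in the same order. After trend removal the class medians were 0.0020 for kainate, 0.03 for AMPA, 0.14 for NMDA and 0.03 for metabotropic receptors. These cover only genes of at least 1 FPKM, 6 for NMDA and 6 for metabotropic receptors, so Grin3b (-0.32 as deposited) and Grm8 (0.29) are left out. The NMDA and metabotropic medians before and after removal are therefore over unlike sets of genes. Whether the classes differ from each other was not tested.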

How the data were processed

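RNA sequencing of nucleus accumbens gave 3 cocaine and 3 saline libraries. TopHat2 2.0.6, Cufflinks 2.0.2 and build NCBIM37 are named in the submitters' processing notes. Settings, read length and strand were not given in the sources used here. The deposited table holds 1 FPKM value per group, inferred as FPKM from its Cuffdiff layout, since the header names no unit. Its log2 fold change and the p-value and q-value are the authors' own and were copied as deposited; a call is q < 0.05 among tested records. Fold changes recomputed from the group values lay within 1.28e-05.

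Lists, alternatives and the rule for named genes (all 8 members, and of each list the called genes and the 2 most abundant) were chosen with earlier results of these data known; a few further list members are named too, and some genes under the rule are not reported here. Python 3.11.15, pandas 2.3.3 and SciPy 1.17.1 were used. The implied standard error is the absolute log2 fold change over the normal quantile of p. Its arithmetic was checked on simulated p-values made with the same normal formula. That check cannot show whether the authors' test had this form. GC content and length were computed for each gene's longest transcript of GENCODE mouse release 21, a later build, for 98.0% of genes of at least 1 FPKM and all 8 members. Removing the trend meant subtracting each gene's cell median, over 10 GC by 10 length cells. Members shared 12 words of 50 bases with each other, all between Grid1 and Grik3, so little of their sequence could draw reads of another member.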

Additional observations from a re-analysis of the deposited data

How the results depend on the processing

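The call of Grik5 ended at a deposited q < 0.01 and under Bonferroni adjustment over all tested records, each with 0 members called; those settings call fewer records by construction, 119 and 80 in place of 184 over the whole table. The call was kept at q < 0.1 by construction too, since any record under 0.05 is also under 0.1. It was also kept by Benjamini-Hochberg adjustment of the authors' deposited p-values over records above a minimum level. Grik5 then had an adjusted value of 0.0311 over records of at least 1 FPKM and 0.0239 over those of at least 5 FPKM. Without a minimum level, the same adjustment over all tested records gave 0.0358, already below the deposited q of 0.0447. After removal of the trend with GC content and length, the log2 fold change of Grik5 turned to 0.0020, because genes of like composition had a median of -0.07. Of 40 recomputed member values, 35 stayed within 1 implied standard error of the deposited value. A further 4 moved beyond it, with Neto1 alone changing sign (-0.01), and 1 reversed. With the trend removed, Grik2, Grik3 and Neto1 moved and Grik5 reversed, and Grik5 also moved when centred. No member moved under pseudocounts of 1 and 0.1 or under rescaling without mitochondrially encoded records, which added 0.00047. Those settings shift most members little by construction, so the count of 35 says little about stability. The members' median ranged from -0.0063 with the trend removed to 0.03 when centred. A pseudocount, which mostly affects low genes, lowered the log2 fold change of Grik1 to 0.10. No paired analysis was possible because the table gives 1 value per group, and for the same reason no library could be left out.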
